A study of Homo sapiens with 27 samples.

Results

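The lysyl oxidase family consists of 5 human genes, LOX, LOXL1, LOXL2, LOXL3 and LOXL4. The members were taken by gene symbol from GENCODE 29 and are 5 of the 34584 genes to which the deposited transcripts could be assigned. No measured value entered this rule, but the family was chosen with earlier results of these data known. Of the 37 transcripts that GENCODE 29 gives for these genes, 36 were in the deposited tables. Messenger RNA was measured by poly-A RNA sequencing in 9 established human lines of cultured cells, in 27 libraries, 3 for each line. All 5 genes passed the filter on low counts and were among the 17220 genes tested.

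BJ is a dermal fibroblast line (labelled epithelial). The melanoma lines (skin) were SK-Mel 28 and SK-Mel 24, U2-OS is an osteosarcoma line (bone) and U251 is a glioblastoma line (brain). A549 is a lung adenocarcinoma line (lung), Caco2 a colorectal adenocarcinoma line, and HepG2 a liver tumour line. RT4 came from a bladder tumour but has the label kidney. No line was treated. Serum was 15% for SK-Mel 24 and 10% for the other lines. The medium was DMEM for A549 and BJ, McCoy for RT4 and U2-OS, and EMEM for the remaining lines, so line and medium cannot be told apart. The series design calls the 3 libraries of a line biological replicates, but how separate the cultures were is not stated, and p-values therefore measure only the spread between these libraries. Each line is a single culture lineage, so a difference between lines is not a difference between tissues.

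Lysyl oxidases are copper-dependent amine oxidases that are secreted from the cell and oxidise lysine side chains of collagen and elastin. The aldehydes they form react to make the covalent crosslinks that give connective tissue its strength. The family falls into LOX and LOXL1, which are made as proenzymes, and LOXL2, LOXL3 and LOXL4, which carry scavenger receptor domains ahead of the catalytic domain. Fibroblasts are a well known source of these enzymes.

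Translated from GENCODE 29, the first-listed transcripts encode 417 residues for LOX, 574 for LOXL1, 774 for LOXL2, 753 for LOXL3 and 756 for LOXL4. LOX and LOXL1 were identical at 59.1% of aligned residues. LOXL2 and LOXL3 were identical at 56.3%, LOXL2 and LOXL4 at 56.3%, and LOXL3 and LOXL4 at 56.8%. Between LOX or LOXL1 and the other members, identity was between 34.8% and 42.6%.

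The part of the coding sequence that encodes the copper-binding site shows what the members share, and is given for 4 of them as 60 coding bases from GENCODE 29 (GRCh38), 5′ to 3′ on the coding strand. Each stretch crosses an exon junction. The spans, introns included, are chr5:122074133-122075426 on the minus strand for LOX, chr15:73946532-73947103 on the plus strand for LOXL1, chr2:74534395-74534553 on the minus strand for LOXL3 and chr10:98252432-98253575 on the minus strand for LOXL4. Capitals mark the 39 of 60 bases that are identical in the 4 genes.
LOX copper-site stretch: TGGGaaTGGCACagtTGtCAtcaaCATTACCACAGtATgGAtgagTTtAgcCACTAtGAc
LOXL1 copper-site stretch: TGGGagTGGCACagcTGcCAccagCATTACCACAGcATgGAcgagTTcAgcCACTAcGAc
LOXL3 copper-site stretch: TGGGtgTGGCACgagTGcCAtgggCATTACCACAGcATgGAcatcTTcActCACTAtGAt
LOXL4 copper-site stretch: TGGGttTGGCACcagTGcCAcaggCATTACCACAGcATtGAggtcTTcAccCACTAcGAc
Within these stretches LOX and LOXL1 shared 51 of 60 bases, LOXL3 and LOXL4 shared 50, and LOX and LOXL3 shared 42. Despite this likeness, no run of 31 bases was shared between the transcripts of any pair of members.

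Libraries held 15597117 to 32583547 estimated counts, with a median of 26090811. Mitochondrial genes took 71.1%, 33.8% and 32.6% of the counts in HepG2 libraries 1, 2 and 3, against 0.928% to 5.72% in the 24 other libraries. Levels are given as TPM, which corrects estimated counts for the length of each transcript and for the size of the library. The mitochondrial share lowers the TPM of every other gene in HepG2, so levels of the members there are also given without mitochondrial genes. The tests use counts scaled by TMM factors, which were 0.255 to 0.607 in HepG2 and 0.855 to 1.35 in the other lines, so HepG2 stands higher on the scale of the tests than in TPM.

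Markers were checked against the labels as mean TPM. BJ had 5 of 5 fibroblast markers at 1 TPM or more, with COL1A2 at 7215 and CDH1, the epithelial cadherin, at 0.36, against its label of epithelial. RT4 had 5 of 5 urothelial and 0 of 5 kidney tubule markers at that level. A549 had 0 of 5 lung epithelium markers, while its VIM (vimentin) was at 897 and its CDH1 at 40.6. SK-Mel 28 had 5 of 5 melanocyte markers, against 3 of 5 in SK-Mel 24. HepG2 had 5 of 5 hepatocyte, Caco2 4 of 5 enterocyte, U251 4 of 5 astroglial and U2-OS 2 of 5 osteoblast markers at that level. Markers of other cell types reached it as well. Caco2 had 5 of 5 hepatocyte markers, U2-OS 4 of 5 epithelial, 3 of 5 fibroblast and 3 of 5 hepatocyte markers, and U251 3 of 5 fibroblast markers. SK-Mel 24 had 4 of 5 fibroblast markers, SK-Mel 28 had 4 of 5 epithelial markers, and both had 4 of 5 astroglial markers. In bulk RNA, fewer cells making a transcript and less RNA per cell cannot be told apart.

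The levels of the 5 genes differed widely among the lines, and each gene had its own set of high lines. BJ was highest for LOX and LOXL2, BJ and U2-OS for LOXL1, SK-Mel 28 and SK-Mel 24 for LOXL3, and SK-Mel 24 for LOXL4. In edgeR's quasi-likelihood F test over the 9 lines, all 5 differed at an adjusted p under 0.05. That test also called 98.3% of all tested genes, so the count says little about the family. Over the 36 pairs of lines, the 5 genes were called in 149 of 180 tests (82.8%), where a call needs an adjusted p under 0.05 and at least 1 on the log2 scale. All tested genes were called in 43.3% of such tests. Some of the member calls involve a line with 10 counts or fewer of the gene.

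**Figure D1:**
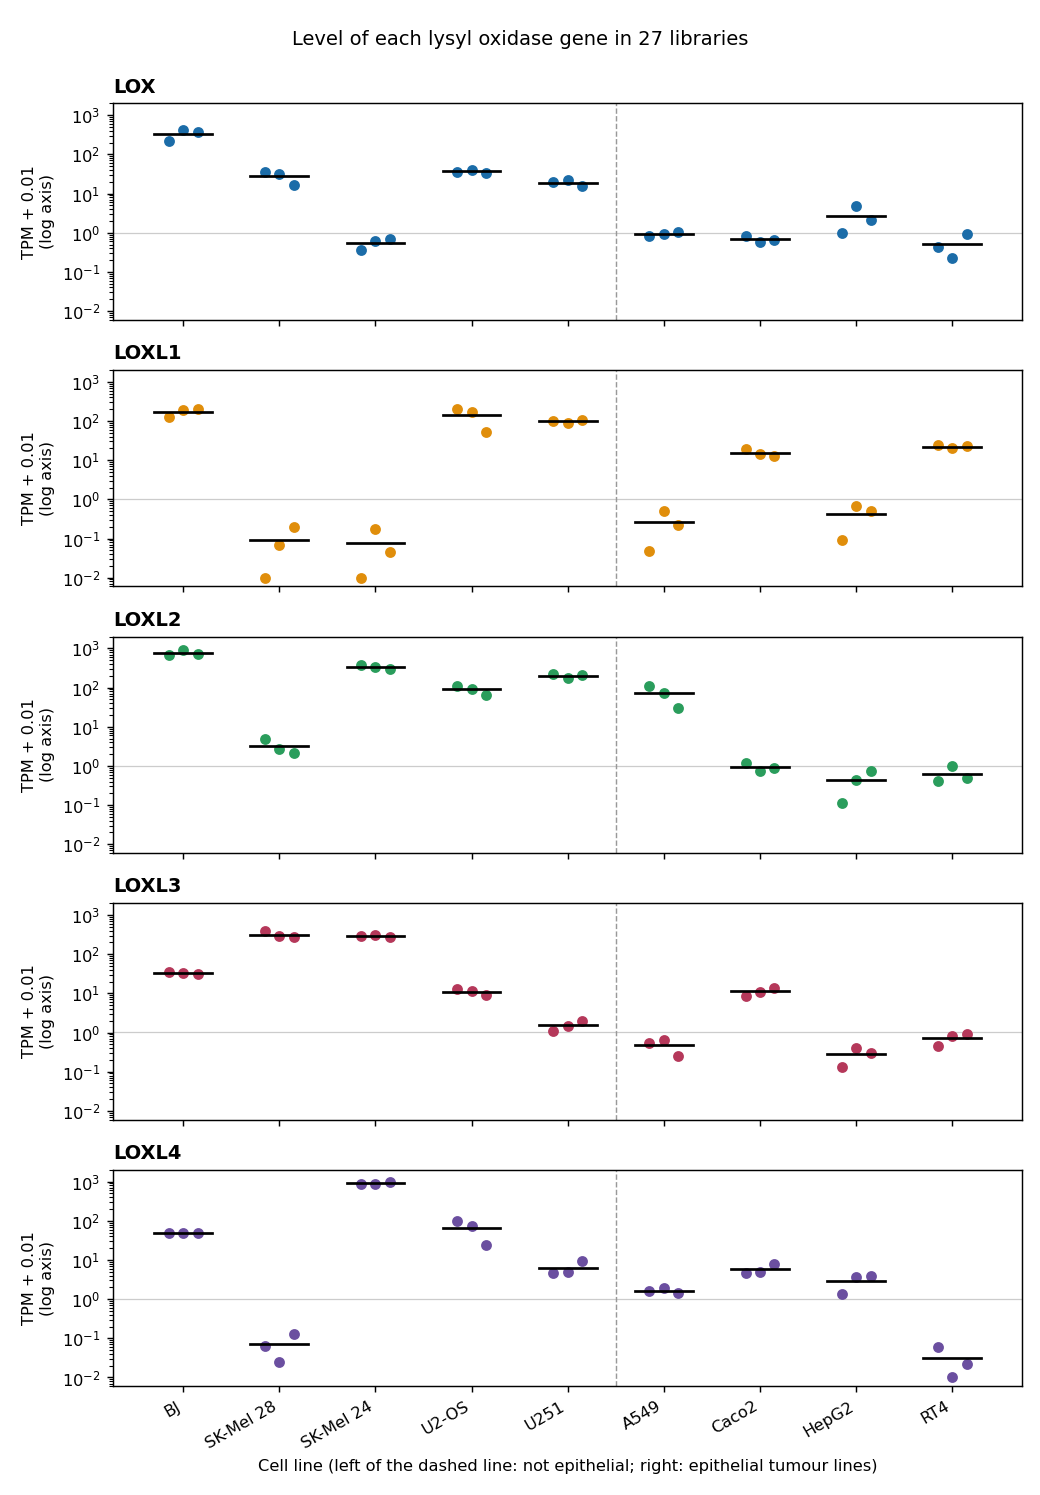
Level of each lysyl oxidase gene in the 27 libraries, as TPM plus 0.01 on a log axis. Points are libraries 1 to 3 of a line from left to right, black bars are the means of 3, the grey line marks 1 TPM, and the dashed line parts the 5 non-epithelial lines from the 4 epithelial tumour lines. LOX is at 220 TPM or more in the BJ libraries and at most 40.7 TPM elsewhere, and LOXL4 averages 0.06 TPM in SK-Mel 28, against 911 TPM in SK-Mel 24.

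LOX (chr5:122063195-122078360, minus strand) encodes the founding member, an enzyme that crosslinks fibrillar collagen and elastin. It had 220, 413 and 371 TPM in the 3 BJ libraries. U2-OS had 36.2, 40.7 and 33.3 TPM, SK-Mel 28 had 34.6, 31.4 and 16.6 TPM, and U251 had 20.1, 21.8 and 15.5 TPM. All BJ libraries lay above all others, while the libraries of U2-OS and SK-Mel 28 overlapped. HepG2 had 0.95, 4.90 and 2.06 TPM, or 4.54, 8.50 and 3.54 without mitochondrial genes. A549 averaged 0.93 ± 0.11 TPM, Caco2 0.68 ± 0.14, SK-Mel 24 0.55 ± 0.17 and RT4 0.52 ± 0.36 (SD, n = 3 each). These 4 lines lay close together at a low level. BJ exceeded U2-OS, the next line, by 4.08 ± 0.34 on the log2 scale (SE; edgeR adjusted p = 3.58e-10). The next 3 steps in the order (U2-OS, SK-Mel 28, U251 and HepG2) were not called, and neither were those among A549, Caco2, SK-Mel 24 and RT4. LOX was called in 25 of 36 pairs of lines, the fewest among the 5 genes.

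LOXL1 (chr15:73925989-73952137, plus strand) encodes an enzyme known for its part in elastic fibre upkeep. BJ had 130, 186 and 207 TPM, U2-OS 204.5, 170 and 51.8 TPM, and U251 100.4, 88.7 and 103.7 TPM. The BJ and U2-OS libraries overlapped, and U2-OS library 3 lay far below the other two. RT4, an epithelial tumour line, had 23.7, 20.4 and 22.4 TPM, and Caco2 had 18.8, 14.1 and 12.9 TPM. HepG2 averaged 0.42 ± 0.31 TPM (0.81 ± 0.39 without mitochondrial genes) and A549 0.25 ± 0.23 TPM (SD, n = 3 each). Only 3 counts in all were assigned to LOXL1 in the 3 SK-Mel 28 libraries and 2 in the 3 SK-Mel 24 libraries, so no fold is given for these lines. Neither BJ against U2-OS (0.69 ± 0.37) nor U2-OS against U251 (0.36 ± 0.37) was called on the log2 scale (SE; edgeR adjusted p = 0.115 and 0.433). U251 exceeded RT4 by 1.76 ± 0.39 (edgeR adjusted p = 0.000417).

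LOXL2 (chr8:23297189-23425328, minus strand) encodes an enzyme known for crosslinking collagen IV of basement membranes. BJ had 673, 915 and 703 TPM, SK-Mel 24 had 383, 341 and 291 TPM, and U251 had 221, 173 and 215 TPM. U2-OS had 110.5, 92.3 and 65.9 TPM, and A549 had 111.5, 73.7 and 29.9 TPM. A549 was the only epithelial tumour line above 1 TPM on average, and its libraries spanned those of U2-OS. SK-Mel 28 had 4.97, 2.71 and 2.10 TPM. Caco2 averaged 0.94 ± 0.23, RT4 0.61 ± 0.30 and HepG2 0.42 ± 0.31 TPM (SD, n = 3 each). Without mitochondrial genes HepG2 averaged 0.83 ± 0.39 TPM and RT4 0.67 TPM, and on the scale of the tests HepG2 was called higher than RT4 (1.58 ± 0.52 log2, edgeR adjusted p = 0.00999). BJ exceeded SK-Mel 24 by 1.55 ± 0.32 on the log2 scale (SE; edgeR adjusted p = 0.000295). SK-Mel 24 against U251 (0.68 ± 0.32, adjusted p = 0.0847) and U2-OS against A549 (0.05 ± 0.32, adjusted p = 0.918) were not called by edgeR. LOXL2 was called in 32 of 36 pairs of lines, the most among the 5 genes.

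LOXL3 (chr2:74532414-74555690, minus strand) encodes an oxidase whose loss in mice disturbs the palate and spine. SK-Mel 28 had 382, 296 and 277 TPM, and SK-Mel 24 had 288.7, 315 and 282.1 TPM. The libraries of the 2 melanoma lines overlapped and lay above all others. BJ had 35.0, 32.8 and 31.2 TPM, Caco2 8.41, 11.0 and 14.1 TPM, and U2-OS 12.9, 11.6 and 8.84 TPM. U251 averaged 1.51 ± 0.41, RT4 0.71 ± 0.25, A549 0.47 ± 0.21 and HepG2 0.27 ± 0.13 TPM (SD, n = 3 each). Without mitochondrial genes HepG2 averaged 0.59 ± 0.09 TPM and A549 0.49 TPM, and on the scale of the tests A549 was called lower than HepG2 (-1.98 ± 0.37 log2, edgeR adjusted p = 4.37e-05). SK-Mel 24 exceeded BJ by 2.85 ± 0.24 on the log2 scale (SE; edgeR adjusted p = 3.66e-10). Caco2 against U2-OS was not called at 0.57 ± 0.23, under the required size.

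LOXL4 (chr10:98247690-98268250, minus strand) encodes the last member, for which the tables hold 1 transcript. SK-Mel 24 had 887, 865 and 981 TPM. U2-OS had 99.4, 75.5 and 23.9 TPM, and BJ had 48.0, 48.6 and 49.8 TPM. The BJ libraries lay within the wide range of U2-OS. U251 averaged 6.19 ± 2.56, Caco2 5.80 ± 1.71, HepG2 2.98 ± 1.41 and A549 1.63 ± 0.24 TPM (SD, n = 3 each). Without mitochondrial genes HepG2 averaged 6.50 ± 0.22 TPM, within the spread of Caco2 (6.06 ± 1.72) and U251 (6.36 ± 2.63; SD, n = 3 each). Caco2 against HepG2 (-0.91 log2) and HepG2 against U251 (0.91 log2) were under the required size. SK-Mel 28 had 10 counts in all over its 3 libraries and RT4 had 5. SK-Mel 24 exceeded U2-OS by 4.00 ± 0.39 on the log2 scale (SE; edgeR adjusted p = 3.83e-09). U2-OS against BJ (-0.11 ± 0.34) and U251 against Caco2 (0.00 ± 0.35) were not called by edgeR (adjusted p = 0.806 and 1).

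The summed family level was 1546 ± 20.3 TPM in SK-Mel 24 and 1355 ± 245 TPM in BJ (SD, n = 3 each). It was 349 ± 64.8 TPM in SK-Mel 28, 346 ± 145 in U2-OS and 327 ± 32.4 in U251, which lay within each other's spread. The epithelial tumour lines were lower, with 74.97 ± 40.9 TPM in A549, 33.9 ± 2.48 in Caco2, 24.1 ± 1.44 in RT4 and 6.72 ± 3.77 in HepG2 (14.3 ± 2.73 without mitochondrial genes). From protein-coding transcripts alone the sums were 213 ± 91.1 TPM in U2-OS, 12.1 ± 4.11 in Caco2, 5.62 ± 2.76 in HepG2 and 5.44 ± 1.70 in RT4, so RT4 no longer stood above HepG2. BJ, U2-OS and U251 had all 5 genes at 1 TPM or more on average, and RT4 had 1.

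The lines with like sums were made up of different members. LOXL4 made up 58.9 ± 3.6% of the family TPM in SK-Mel 24, where LOXL2 held 21.9 ± 3.0% and LOXL3 19.1 ± 1.4%. LOXL3 alone made up 91.3 ± 2.0% in SK-Mel 28. LOXL2 was the largest member in BJ (56.6 ± 4.7%), U251 (61.9 ± 2.0%) and A549 (94.5 ± 3.2%), and LOXL1 in RT4 (92.2 ± 2.2%). LOXL1 also led in U2-OS (38.6 ± 9.1%) and Caco2 (45.3 ± 9.9%), and LOXL4 in HepG2 (46.8 ± 9.1%; SD, n = 3 for each share). With protein-coding transcripts only, the leading member changed to LOXL2 in U2-OS (44.4 ± 10.0%) and to LOXL4 in Caco2 (48.5 ± 5.5%).

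**Figure D2:**
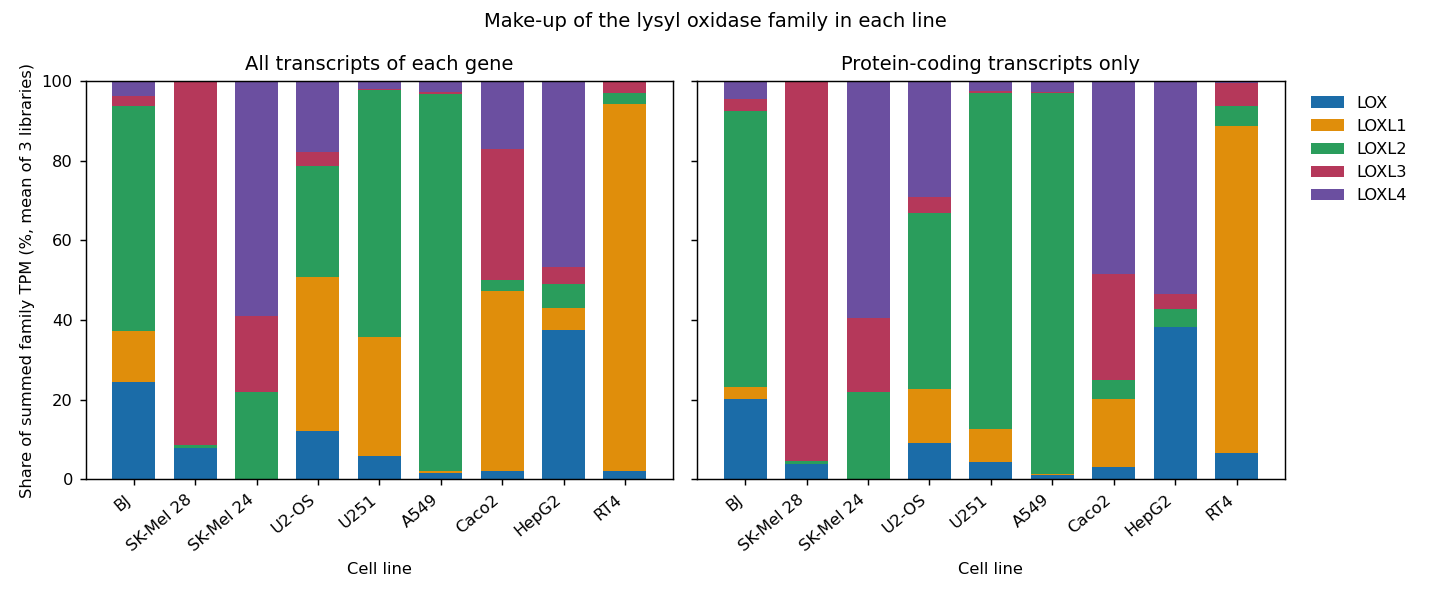
Share of each member in the summed family TPM of each line (%, mean of 3 libraries), from all transcripts on the left and from protein-coding transcripts on the right. LOXL3 fills 91.3% of the SK-Mel 28 bar on the left, and LOXL1 shrinks on the right in every line where it is large.

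Set against the mean of the other 8 lines, the 5 genes were called higher in 22 of 45 tests (48.9%, against 20.3% over all tested genes and lines) and lower in 19 (42.2%, against 13.6%). The lower calls include LOXL1 in A549, SK-Mel 28 and SK-Mel 24 and LOXL4 in SK-Mel 28 and RT4, each with 10 counts or fewer per line. BJ had 5 of 5 higher, where 20.1% of all genes were called higher. The log2 differences in BJ were 6.94 ± 0.17 for LOX, 6.03 ± 0.25 for LOXL1, 6.58 ± 0.18 for LOXL2, 2.64 ± 0.14 for LOXL3 and 3.89 ± 0.22 for LOXL4 (SE; edgeR adjusted p of at most 9.50e-14). U2-OS had 4 higher and 0 lower (25.3% and 10.9% of all genes), with LOXL3 not called at 0.11 ± 0.17. A549 had LOXL2 higher and 4 lower (18.4% and 10.8% of all genes), and RT4 had LOXL1 higher and 4 lower (18.6% and 14.2%).

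The mean of the other lines is taken on a log scale, so lines near 0 pull it down and a gene at a low level can be called higher. LOX and LOXL4 were called higher in HepG2, as were 25.8% of all genes (1.13 ± 0.22 and 1.24 ± 0.27, SE; edgeR adjusted p = 6.80e-05 and 0.000248) at 2.64 and 2.98 TPM. Without mitochondrial genes they averaged 5.53 and 6.50 TPM there. The parts of the log-scale mean and of the scaling of HepG2 in these calls were not tested. LOX fell under the required size without HepG2 library 2 (0.76). The 4 tests without a call were LOXL3 in Caco2 and U2-OS and LOXL4 in Caco2 and U251.

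**Figure D3:**
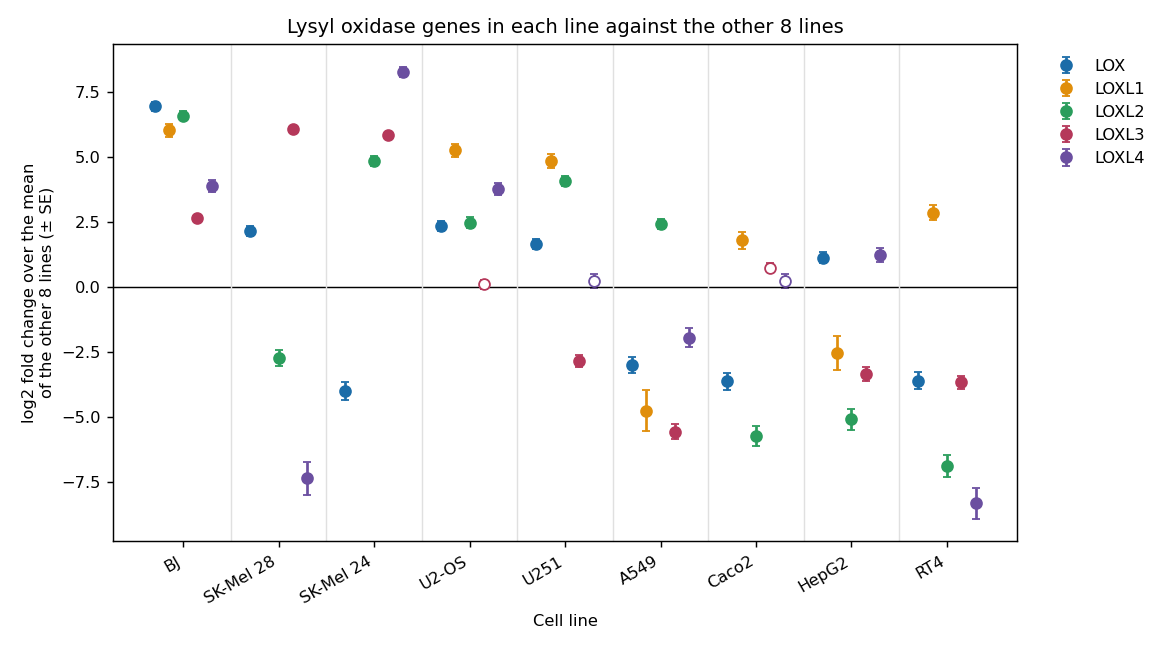
log2 fold change of each member in a line over the mean of the other 8 lines, with bars of 1 SE from edgeR. Filled points are called and open points are not. All 5 points of BJ are filled and above 0. LOXL1 in the SK-Mel lines, at 3 counts or fewer, is not drawn, and the points of LOXL1 in A549 and of LOXL4 in SK-Mel 28 and RT4 rest on 10 counts or fewer per line.

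The 5 non-epithelial lines (BJ, SK-Mel 28, SK-Mel 24, U2-OS and U251) were set against the 4 epithelial tumour lines (A549, Caco2, HepG2 and RT4). The split follows the known origin of the lines and not a label, and it tests these 9 lines only. The markers separated the 2 sets only in part. Mesenchymal markers summed to 2918 to 8704 TPM in the non-epithelial lines, against 36.6 to 1698 TPM in the epithelial tumour lines, but VIM was the 1 of 5 without overlap between the sets. Epithelial markers summed to 94.98 to 1031 TPM in the non-epithelial lines, against 1371 to 11109 TPM in the epithelial tumour lines, and 3 of 5 (CDH1, EPCAM and KRT18) did not overlap. AXL, a receptor kinase, was at 0.45 TPM in SK-Mel 28, against 78.9 TPM in A549, and ESRP1, an epithelial splicing factor, was at 28.2 TPM in SK-Mel 28, against 0.07 TPM in A549. LOX, LOXL2, LOXL3 and LOXL4 were called higher in the non-epithelial lines, 4 of 5 genes, against 17.6% of all genes higher and 14.6% lower. The log2 differences were 3.64 ± 0.18 for LOX, 6.10 ± 0.21 for LOXL2, 4.73 ± 0.14 for LOXL3 and 3.52 ± 0.36 for LOXL4 (SE; edgeR adjusted p of at most 4.72e-09). LOXL1 differed by 1.05 ± 0.58 and was not called (edgeR adjusted p = 0.116), but was called without U2-OS library 3 (1.14, edgeR adjusted p = 0.0251). Its non-epithelial mean includes SK-Mel 28 and SK-Mel 24, with 3 and 2 counts of LOXL1 in all.

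None of these 5 genes separated the 2 sets of lines completely. LOX was lower in SK-Mel 24, at 0.55 TPM, than in HepG2, at 2.64 TPM. LOXL2 was at 3.26 TPM in SK-Mel 28, against 71.7 TPM in A549. LOXL3 was at 1.51 TPM in U251, against 11.2 TPM in Caco2. LOXL4 was at 0.06 TPM in SK-Mel 28, against 5.80 TPM in Caco2. LOXL1 was at 0.08 TPM in SK-Mel 28 and 0.07 TPM in SK-Mel 24, against 22.2 TPM in RT4. In BJ, U2-OS and U251, LOXL1 was at 174, 142 and 97.6 TPM, above all epithelial tumour lines.

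SK-Mel 28 and SK-Mel 24 share the skin label and differed in 3 of 5 members. LOX was at 34.6, 31.4 and 16.6 TPM in SK-Mel 28, against 0.36, 0.59 and 0.69 TPM in SK-Mel 24, without overlap. It was 5.48 ± 0.39 higher on the log2 scale (SE; edgeR adjusted p = 2.92e-11). LOXL2 was at 4.97, 2.71 and 2.10 TPM in SK-Mel 28, against 383, 341 and 291 TPM in SK-Mel 24, a log2 difference of -6.72 ± 0.41 (adjusted p = 1.71e-12 in edgeR). LOXL4 had 4, 1 and 5 counts in SK-Mel 28, against 41526, 56530 and 43650 counts in SK-Mel 24, and was lower by edgeR (adjusted p = 1.08e-14). LOXL3 did not pass, at 0.19 ± 0.22 (adjusted p = 0.511 in edgeR). Of all genes, 15.5% were called higher and 16.5% lower in SK-Mel 28. The 2 lines also differed in serum (10% against 15%), and the 5 melanocyte markers summed to 11874 TPM in SK-Mel 28, against 257.4 TPM in SK-Mel 24. The 5 mesenchymal markers summed to 4840 TPM in SK-Mel 28, against 4384 TPM in SK-Mel 24. The part of these differences in the result was not tested.

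The transcripts behind a gene's level differed between members. LOXL4 had 1 transcript, and the full-length LOXL2 transcript held 80.4% to 93.6% of LOXL2 TPM in the 6 lines where LOXL2 was above 1 TPM. The main coding LOX transcript held 44.2% to 66.2% of LOX TPM in BJ, SK-Mel 28, U2-OS and U251.

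In LOXL1, most TPM fell on LOXL1-204, a retained-intron form of 557 bases that GENCODE gives no coding sequence. It held 72.8 ± 4.3% in BJ, 66.4 ± 5.9% in U2-OS, 70.4 ± 5.8% in U251, 66.0 ± 4.5% in Caco2 and 61.9 ± 8.6% in RT4 (SD, n = 3 each). The full-length coding transcript held 19.0 ± 4.8% of the TPM in BJ, although it received 3285 of the 5897 estimated counts, since TPM divides by length. Only 50 bases of LOXL1-204 lie outside the exons of the full-length transcript, and 49 of them are intron bases at its start. They are shown because reads elsewhere in it cannot tell the 2 transcripts apart by sequence. The stretch lies at chr15:73946368-73946436 (GENCODE 29, GRCh38, plus strand), with the 49 intron bases in capitals.
LOXL1-204 start: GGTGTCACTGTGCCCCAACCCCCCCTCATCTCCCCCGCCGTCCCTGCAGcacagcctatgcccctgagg
From coding transcripts alone, LOXL1 was at 32.3 ± 8.06 TPM in BJ, 33.0 ± 26.1 in U2-OS and 20.1 ± 8.33 in U251 (SD, n = 3 each).

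In LOXL3, the largest coding forms were not the longest. The most abundant, here called the short form, encodes 608 residues. It lacks 2 exons of 220 and 215 bases (435 together, a whole number of codons) of the full-length form, which encodes 753. LOXL3-204 encodes 697 residues and lacks an exon of 168 bases. Junctions at the skipped exons are given on the coding strand (GENCODE 29, GRCh38, minus strand), with the upstream exon in capitals. They span chr2:74536452-74550204 for the short form, chr2:74549564-74550204 and chr2:74536452-74536728 for the full-length form, and chr2:74535435-74536015 for LOXL3-204. The 2 full-length junctions border the exons that the short form lacks. LOXL3-204 does not lack those 2 exons, so these junctions set the short form apart but do not part the full-length form from LOXL3-204.
LOXL3 short form junction: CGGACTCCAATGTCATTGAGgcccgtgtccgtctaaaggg
LOXL3 full-length upstream junction: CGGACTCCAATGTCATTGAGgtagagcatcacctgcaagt
LOXL3 full-length downstream junction: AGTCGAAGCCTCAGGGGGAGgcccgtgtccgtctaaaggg
LOXL3-204 skip junction: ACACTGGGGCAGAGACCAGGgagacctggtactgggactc

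The short form held 65.1 ± 2.2% of LOXL3 TPM in BJ, 54.5 ± 2.4% in SK-Mel 28 and 55.9 ± 4.0% in SK-Mel 24 (SD, n = 3 each). LOXL3-204 held 37.6%, 33.3% and 32.6% in the SK-Mel 28 libraries, against 25.2%, 22.3% and 22.6% in the SK-Mel 24 libraries. The full-length form held 7.14%, 0% and 6.37% in SK-Mel 28, against 15.0%, 11.7% and 13.9% in SK-Mel 24. The libraries of the 2 lines did not overlap for these 2 transcripts, at the smallest p that 3 against 3 allows (p = 0.1, exact two-sided permutation test; 0.2 adjusted over 4 transcripts), so neither passed. The short form overlapped between the lines (p = 0.6, exact permutation test). In Caco2, LOXL3-208, a retained-intron form without coding sequence, held 67.3 ± 8.9% of LOXL3 TPM, and LOXL3 was at 3.39 TPM there from coding transcripts alone.

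**Figure D4:**
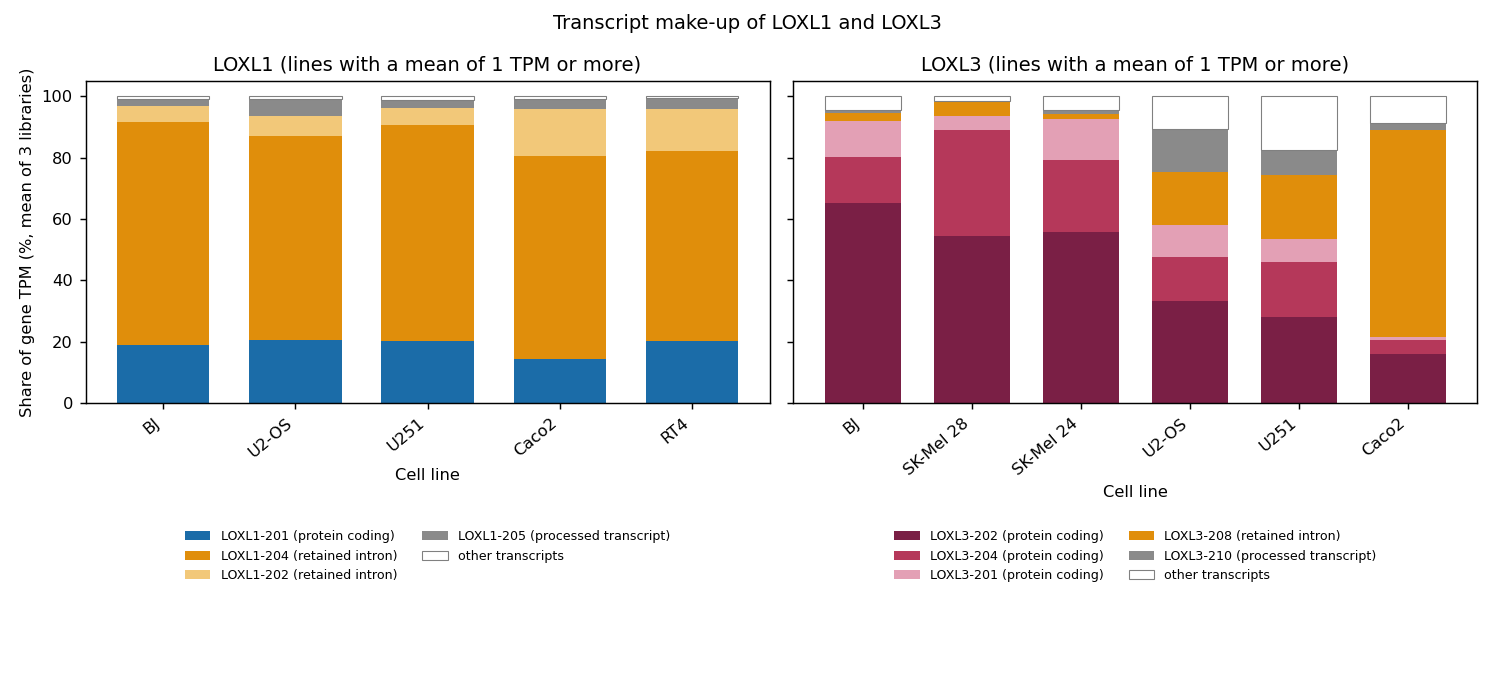
Share of each transcript in the TPM of LOXL1 (left) and LOXL3 (right), as the mean of 3 libraries, in lines where the gene averaged 1 TPM or more. LOXL1-204 is the largest block in all 5 LOXL1 bars, and LOXL3-208 is the largest in Caco2 only.

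Some reads could belong to genes that share these loci. The libraries were made with a stranded kit, but the strand setting of the quantification is not given in the sources used here. HTRA2, a mitochondrial protease gene, and DOK1 lie opposite LOXL3, and 571 and 162 of the 4433 distinct 31-base runs of LOXL3 are also found in them on the opposite strand. HTRA2 was at 39.3 TPM in SK-Mel 28 and 40.7 TPM in SK-Mel 24, with 19.0 to 58.8 TPM over all lines, and DOK1 at 0.08 to 21.3 TPM. SRFBP1 lies opposite LOX and was at 0.50 to 20.3 TPM, with 4.08 TPM in BJ where LOX was highest. ENTPD4 overlaps LOXL2 on the same strand and shares 94 of its 5832 runs. ENTPD4 was at 2.15 to 48.6 TPM, with 36.9 TPM in SK-Mel 28, where LOXL2 was at 3.26. LOXL1-AS1, AC090197.1 and AL139241.1 lie opposite LOXL1, LOXL2 and LOXL4. They had no matched transcript in the deposited tables, so their levels are not known. On the opposite strand they hold 262 of 3666 runs of LOXL1, 152 of 5832 of LOXL2 and 126 of 3623 of LOXL4.

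Over the 9 line means of log2 CPM, the members were only loosely alike, with Pearson's r between -0.22 for LOXL1 with LOXL3 and 0.65 for LOXL2 with LOXL4 (n = 9 lines, the same libraries behind each value). The genes most like LOX were MAGI2 (0.97), WNT2B (0.94) and SYPL2 (0.93), and those most like LOXL1 were GUCA1B (0.95), MYL12B (0.92) and UNC5B (0.91). LOXL2 was most like FGF2 (0.98), CDR1 (0.97) and ADAMTSL1 (0.97). LOXL3 was most like TUBB2A (0.96), SGCA (0.93) and PAX3 (0.92), and LOXL4 most like NES (0.94), COPS6 (0.91) and RGPD1 (0.90). TUBB2A and RGPD1 have near-identical paralogs and CDR1 an antisense transcript, so their counts are uncertain. GUCA1B and SGCA were low in all lines, at log2 CPM of -3.27 to -0.74 and -3.59 to 0.30. All these genes were picked as the highest among the 16086 protein-coding genes tested, so a high r over 9 lines carries no p.

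A list of 41 further genes of collagen and elastin crosslinking was read beside the family. In the non-epithelial against the epithelial tumour lines, 26 were called higher and 2 lower, 63.4% and 4.88% against 17.6% and 14.6% of all genes. The median log2 difference was 1.43 over 38 list genes, against 0.05 over all genes. ADAMTS14, POSTN and TLL1 had lines at 0 counts, and no usable error could be fitted for them. In BJ against the other 8 lines, 31 were called higher and 1 lower, 75.6% and 2.44% against 20.1% and 13.1% of all genes. The median was 3.62, against -0.05 over all genes.

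Among the substrates, 7 of 8 were higher in the non-epithelial lines, but 1 of them, COL5A2, lost its call and changed sign without HepG2 (-0.22, edgeR adjusted p = 0.140). The basement membrane collagens COL4A1 and COL4A2 differed by 5.80 ± 0.30 and 5.57 ± 0.25 on the log2 scale, and COL1A2, a chain of collagen I, by 4.79 ± 0.40 (SE). COL4A1 and COL4A2 were at 0.62 and 2.68 TPM in SK-Mel 28, against 13.1 and 42.8 TPM in A549. BJ, U2-OS, U251 and SK-Mel 24 lay above A549 for both. ELN, the elastin gene, was not called (-0.28 ± 0.51). In TPM, COL1A2 was at 7215 in BJ, 158 in U251 and 0.43 in U2-OS, with 0.62 in SK-Mel 28 and 1.01 in SK-Mel 24, against 0.09 to 0.75 in the epithelial tumour lines. COL1A1, the other chain, was at 2877 TPM in BJ, 384 in U2-OS, 7.51 in U251 and 0.55 in each of the SK-Mel lines, against 0.53 to 11.4 in the epithelial tumour lines. Without mitochondrial genes HepG2 had COL1A2 at 2.14 TPM and COL1A1 at 1.56 TPM. On that scale COL1A2 was lower in U2-OS (0.44), SK-Mel 28 (0.66) and SK-Mel 24 (1.03) than in HepG2. The SK-Mel lines, highest for LOXL3, thus had both collagen I genes near 1 TPM or below.

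Among 10 scaffold and binding proteins, 7 were higher and 1 lower. SPARC, a collagen-binding protein, differed by 8.42 ± 0.27 and was at 1994 to 7023 TPM in the 5 non-epithelial lines, against 1.39 to 16.4 TPM in the epithelial tumour lines. Without mitochondrial genes HepG2 had SPARC at 35.8 TPM. The fibrillin genes FBN1 and FBN2 differed by 4.98 ± 0.22 and 4.33 ± 0.22 (SE, log2). FBN2 did not separate the sets. It was at 57.0 TPM in U2-OS, 36.3 in BJ, 6.16 in SK-Mel 24, 0.14 in U251 and 0.12 in SK-Mel 28. A549 had 43.3 TPM of FBN2, and Caco2, RT4 and HepG2 had at most 0.02. FN1 (fibronectin), on which LOX is known to be activated, was at 2996 TPM in BJ. FMOD, a collagen-binding proteoglycan gene, was the gene called lower (-2.73 ± 0.79) and was at 88.3 TPM in Caco2; the call was lost without HepG2 library 1.

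Among 7 proteases and their enhancers, 3 were higher. ADAMTS2, a procollagen peptidase, differed by 4.17 ± 0.51, BMP1, which cleaves the LOX proenzyme, by 1.24 ± 0.12, and TLL2, a relative of BMP1, by 1.01 ± 0.32 (SE, log2). TLL2 was under 1 TPM in every line, and it fell just under the required size of change with DESeq2 and when any of several single libraries was left out. PCOLCE, a procollagen peptidase enhancer, was at 560 TPM in BJ. PCOLCE2 was the list gene called lower in BJ (-3.21 ± 0.44).

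Among 12 genes of collagen hydroxylation and folding, 8 were higher and 0 lower. FKBP10 differed by 3.33 ± 0.13, and the lysyl hydroxylases PLOD2 and PLOD3 by 2.18 ± 0.15 and 2.15 ± 0.13 (SE, log2). FKBP10 was at 0.19 TPM in RT4 and 53.6 to 88.9 TPM in the other epithelial tumour lines, against 77.1 to 495 TPM in the non-epithelial lines. Without mitochondrial genes HepG2 had 166 TPM of FKBP10, above U2-OS (109) and U251 (79.2). PPIB and P4HB, with 1426 and 1140 TPM in BJ, were not called in either comparison. Among 4 copper supply genes, the copper chaperone ATOX1 was higher by 1.12 ± 0.10 and the copper pump ATP7B was lower (-1.30 ± 0.09; under the required size without HepG2), while ATP7A and the copper importer SLC31A1 were not called. ATOX1 was at 2632 TPM in SK-Mel 28, against 76.2 to 379 TPM in the other lines. The lowest of these, HepG2, had ATOX1 at 157.7 TPM without mitochondrial genes. All 4 copper genes were without a call in BJ.

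**Figure D5:**
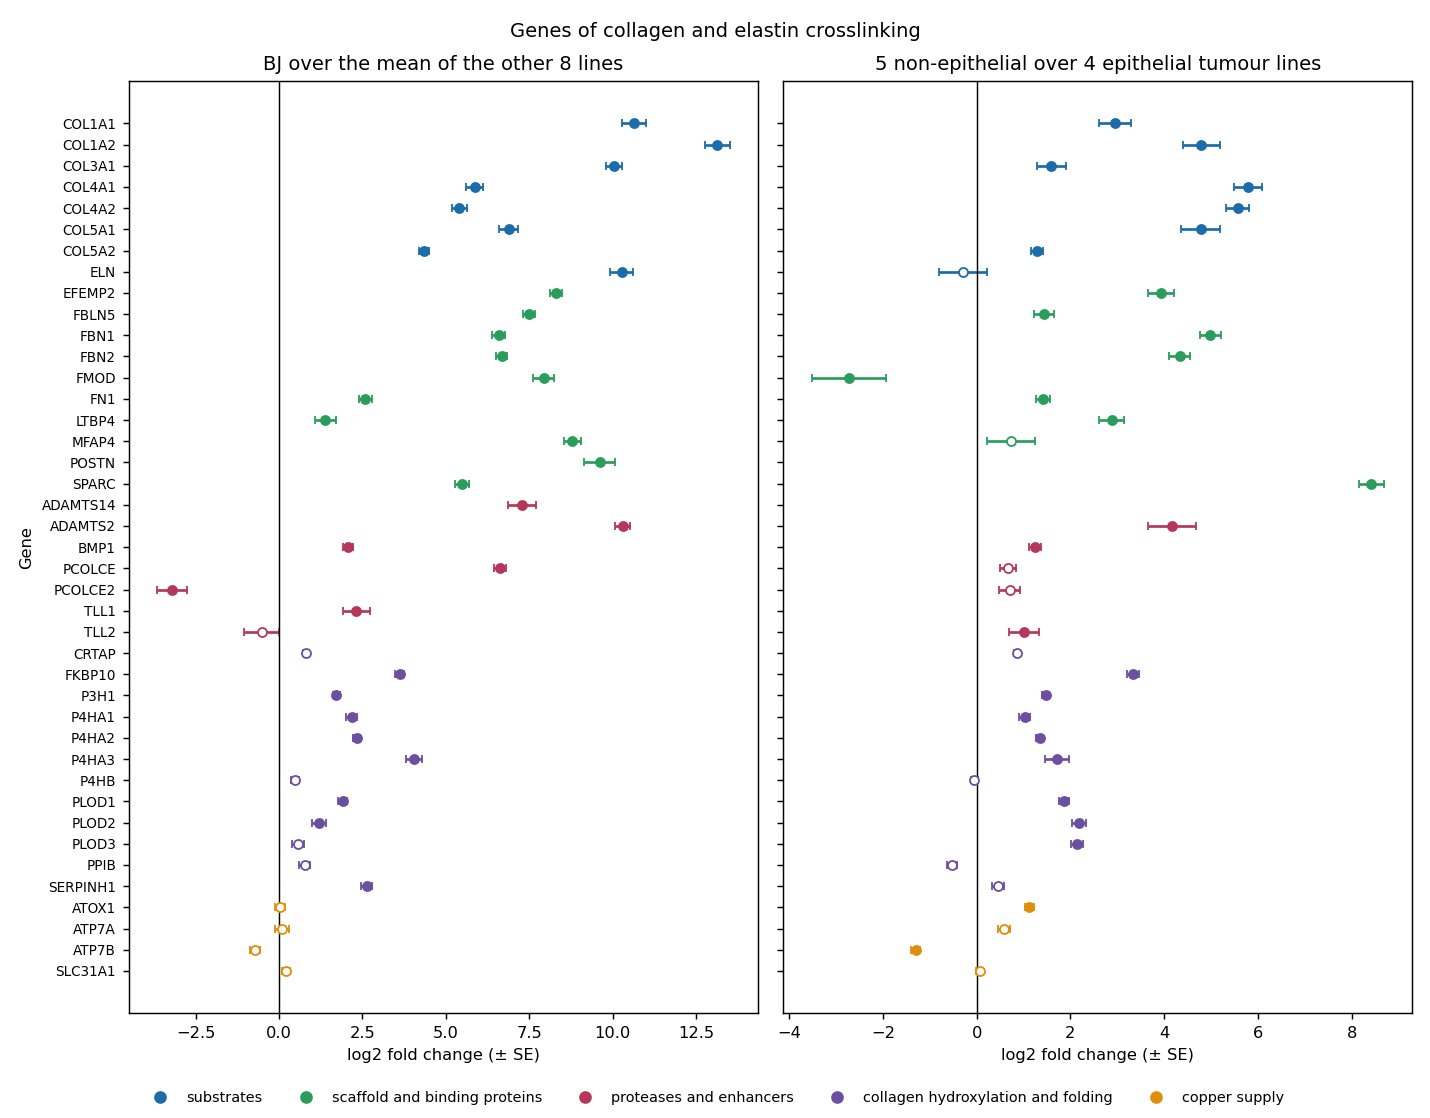
log2 fold change (± 1 SE, edgeR) of 41 genes of collagen and elastin crosslinking, coloured by role, in BJ over the mean of the other 8 lines (left) and in 5 non-epithelial over 4 epithelial tumour lines (right). Filled points are called; ADAMTS14, POSTN and TLL1 have no usable error on the right and are not drawn there. All 8 substrates are filled and above 0 in BJ, and the 4 copper genes lie near 0.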

How the data were processed

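Messenger RNA of 9 cell lines was sequenced, with 3 libraries per line. Per the submitters' processing notes, CASAVA 1.8, kallisto 0.43.1 and the GRCh38 build were named, without their settings. The sources used here do not give the annotation release or strand setting. Per the file headers, the authors' deposited tables hold an estimated count and a TPM value for each of 176241 transcripts. TPM, as deposited by the authors, is scaled to transcript length and library total, so an abundant class lowers all other values. Through GENCODE 29 identifiers, 159887 transcripts matched 34584 genes; the other 16354 (9.28%) were left out. TPM and estimated counts were summed to genes, and counts were rounded.

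The rounded gene sums entered edgeR 4.0.16, run in R 4.3.3 (robust quasi-likelihood, TMM, filterByExpr, 1 coefficient per line, 27 libraries in a single fit), with Benjamini-Hochberg adjustment over 17220 genes. A contrast was called where the adjusted p was under 0.05 and the log2 fold change reached 1 in size; the F test used the adjusted p alone. The biological coefficient of variation was 24.2%. The script was tested on simulated counts. Within a line, libraries differed well beyond sampling noise (median chi-square at least 6.67 times its expectation), so none was treated as a copy.

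Named genes were the 5 members, genes overlapping them, the 3 protein-coding genes most like each by correlation of line means, and in each role of the list the 3 called genes with the largest change plus the 2 highest in BJ. AXL, ESRP1, FMOD, COL5A2, PCOLCE2, ELN and the genes without a usable error were named after their values were seen. The members, lists and markers were chosen with earlier results of these data known. Alternatives were DESeq2 1.42.0, its size factors, no count filter, protein-coding transcripts only, removal of mitochondrial genes or HepG2, each library left out, and a replicate block.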

Additional observations from a re-analysis of the deposited data

How the results depend on the processing

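The counts of called members kept within 1.5 times their value under DESeq2, its size factors in edgeR, no count filter, protein-coding transcripts only, removal of mitochondrial genes, removal of HepG2 and the replicate block. Leaving out each library in turn gave 5 members differing among the lines, 147 to 150 calls over pairs of lines, 21 to 22 higher and 19 lower calls against the other lines, 4 to 5 higher and 0 lower between non-epithelial and epithelial tumour lines, and 1 higher and 2 lower between SK-Mel 28 and SK-Mel 24. Pathway genes called lower in the non-epithelial lines were 1 without HepG2 and 1 to 2 when a library was left out: FMOD was lost without HepG2 library 1. COL5A2 turned to -0.22 in the same comparison without HepG2 (adjusted p = 0.140 in edgeR); the cause was not tested. LOX in HepG2 lost its call under the replicate block (0.89) and without HepG2 library 2 (0.76). With protein-coding transcripts only, LOXL1 lost its call in A549, HepG2 and SK-Mel 24 (edgeR adjusted p = 1 in each), where its full-length coding transcript held 5.07, 2.45 and 1 estimated counts per line. In each case the other lines included SK-Mel 28, whose 3 libraries all had 0 TPM of coding LOXL1. The parts of the low counts and of this line in the lost calls were not tested. The fitted log2 differences did not shrink alike: -4.35 in A549 and -4.16 in HepG2, against -4.75 and -2.53 from all transcripts. TLL2 and P4HA1, close to the required size, fell below it under DESeq2 (0.98 in each). The numbers after P in the titles are not stated to pair samples. Deviations of same-numbered SK-Mel libraries correlated at 0.11, 0.27 and 0.096, and those of differently numbered libraries at -0.19 to 0.075. The main fit did not take same-numbered libraries as pairs, although their values were the higher ones. Whether same-numbered libraries share a condition was not tested. The replicate block gave the same 1 higher and 2 lower calls between SK-Mel 28 and SK-Mel 24.
Genes at 10 counts or fewer over a line, such as LOXL1 in both SK-Mel lines and LOXL4 in RT4, are limited by depth, and the order among such lines was not detectable. LOXL1 was called lower in A549, at 10 counts, than in HepG2, at 17 (-1.97 ± 0.87 log2, SE, edgeR adjusted p = 0.0481). That call was lost with no count filter, under the replicate block, with protein-coding transcripts only and when any of many single libraries was left out.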

Other observations

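Some members differed several-fold between libraries of a single line. LOXL2 in A549 was at 111.5, 73.7 and 29.9 TPM in the libraries whose titles carry P numbers of 6, 4 and 3. LOXL1 in U2-OS was at 204.5, 170 and 51.8 TPM, and LOXL4 at 99.4, 75.5 and 23.9 TPM, at P numbers of 7, 6 and 5. What the P number stands for is not stated. A slope on it within lines, shared by all lines and added after these values were seen, was not called for any member in edgeR (LOXL2 0.16 ± 0.08 log2 per unit, adjusted p = 0.879). Over all 17220 genes 0 passed the adjusted p and 837 had an unadjusted p under 0.05. Because all lines share the slope, it cannot decide whether levels follow the P number in A549 or U2-OS alone.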
